A study of Mus musculus with 6 samples.

Results

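RAB GTPases are small switch proteins that direct membrane traffic, and this section describes how the genes of the family were expressed in cultured mouse bone marrow cells with and without Dnmt3a. Members were taken from the gene table by symbol: Rab followed directly by a digit and then only digits and letters, without Rab27a, Rab27b and the symbols of interacting proteins that end in ip or in fip and digits. The rule found 58 of the 15139 rows. Of these, 53 encode RAB GTPases. The other 5 carry a RAB symbol without being one: the regulators Rab3gap1, Rab3gap2 and Rab3il1, and the non-coding RNAs Rab10os and Rab26os. The label of the set therefore holds for 53 members, and the 5 others are described separately.

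Marrow cells were cultured in RPMI with fetal bovine serum, IL3 (10 ng/ml) and SCF (50 ng/ml), and mRNA was sequenced at week 1. The wild-type (WT) group is labelled MxCre with Dnmt3a+/+ and was measured in 3 libraries, and the knockout (KO) group is labelled MxCre with Dnmt3a-/- and was measured in 2 libraries, replicates 2 and 3. Replicate 1 of the KO group was not analysed here. Both groups thus carry Mx-Cre, a recombinase under an interferon-responsive promoter, and both received the same cytokines. One label field calls the KO cells a knockdown, and the labels give no age for the mice. Levels are FPKM, fragments normalised to gene length and library size, so they can be compared between genes. Dnmt3a fell from 8.57 ± 1.70 FPKM (SD, n = 3) in WT to 3.0 ± 0.594 FPKM (SD, n = 2) in the KO. The labelled cell type is bone marrow cells, and markers of mast cells, basophils, macrophages, neutrophils and eosinophils were all detected.

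A RAB protein is lipid-anchored to a membrane and cycles between a GDP-bound inactive and a GTP-bound active form. Exchange factors (GEFs) load GTP and thereby switch it on, GTPase-activating proteins (GAPs) switch it off, and the active form recruits effectors such as tethers and motor adaptors. Different RAB proteins mark different compartments, from the endoplasmic reticulum and Golgi through early and late endosomes to secretory granules. In mast cells and granulocytes they serve granule release, and in macrophages they serve uptake and degradation.

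Of the 53 GTPase genes, 42 reached 1 FPKM in at least 2 libraries and were tested. In the KO, 6 rose and 11 fell, and 25 did not pass (limma on log2(FPKM + 1), Benjamini-Hochberg adjusted p under 0.05 over all 11365 tested genes). Among all tested genes 22.1% were called, 9.08% higher and 13% lower, against 40.5% of the tested GTPase genes. The GTPase genes were more abundant than most genes, with a median WT level of 38.0 FPKM against 11.4 FPKM over all tested genes. Of the 33 with a mean of at least 10 FPKM, 15 were called (45.5%), and of all 6096 genes at that level 24.5% were called. The median log2 change was -0.09 for the GTPase genes and -0.04 for all tested genes. Both KO libraries lay above all WT libraries for 12 of the 42 and below them for 19, against 20.4% and 30.8% of all tested genes. These shares describe the set, and no test of it as a set was made. The distance from the background depended on the setting: of all 47 tested members 38.3% were called, but 25.5% under upper-quartile scaling (21.1% of all genes), 25.5% under quantile normalization (21.2%), 27.7% with a replicate block (18.1%) and 19.1% with sex as a covariate (11.5%). Leaving out WT replicate 1, 2 or 3 gave 21.3, 17.0 and 23.4% of members against 17.5, 14.4 and 15.7% of all genes.

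By compartment, genes of regulated secretion and lysosome-related organelles made up 4 of the 6 that rose: Rab38, Rab37, Rab3a and Rab44. Of the 7 tested in that group, 1 fell (Rab29) and 2 did not pass (Rab32 and Rab3d), and the KO libraries of these lay below all WT libraries. Genes of late endosomes, lysosomes and autophagy held the largest fall, that of Rab7b, and 4 of their 5 tested members fell. Among all tested genes 9.08% rose and 13% fell. The role groups were drawn up with earlier results of these data known. Of the 14 alternatives tried, Rab3a was called in 9, Rab44 in 7, Rab9 in 9 and Rab7 in 7. Rab38, Rab37, Rab7b and Rab24 were called in all 14. Since the libraries are bulk cultures, fewer cells of a type and less RNA per cell cannot be told apart in any of these values.

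Cell type markers moved in the same libraries. Of 14 mast cell markers, 11 rose and none fell, and their summed level was 14007 to 15996 FPKM in WT and 32785 to 36837 FPKM in the KO. Of 17 markers of monocytes and macrophages, 16 fell, with a sum of 6228 to 8168 FPKM in WT and 1844 to 2255 FPKM in the KO. Dendritic cell and MHC class II genes fell in 7 of 7 tested cases (1648 to 2244 and 166 to 326 FPKM over 8 genes, of which Flt3 stayed under 1 FPKM). Of 12 neutrophil markers 11 fell (22434 to 33026 and 12829 to 16656 FPKM). Of 6 basophil markers 4 rose (5957 to 7504 and 7559 to 7789 FPKM). Mcpt8 and Prss34 of this list did not pass (log2 change -0.22 and -0.06, limma adjusted p = 0.306 and 0.862). Of 7 eosinophil markers 1 rose (5978 to 9026 and 7996 to 10777 FPKM). Of 6 tested erythroid markers 2 fell (77.4 to 83.1 and 55.4 to 64.1 FPKM over 7 genes), and of 3 tested markers of B, T and NK cells 2 fell (69.9 to 78.8 and 44.0 to 47.8 FPKM over 6 genes). No marker in the table was at 0 in all libraries. The part of these markers in the RAB changes was not tested. Xist and Ddx3y also showed that WT replicate 1 and both KO libraries were male and WT replicates 2 and 3 female. With sex as a covariate 9 of the 47 tested members were called. These were Rab38, Rab37, Rab19 and Rab13 upward, and Rab7b, Rab29, Rab24, Rab3il1 and Rab3d downward. That fit compares the KO with WT replicate 1 alone.

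**Figure D1:**
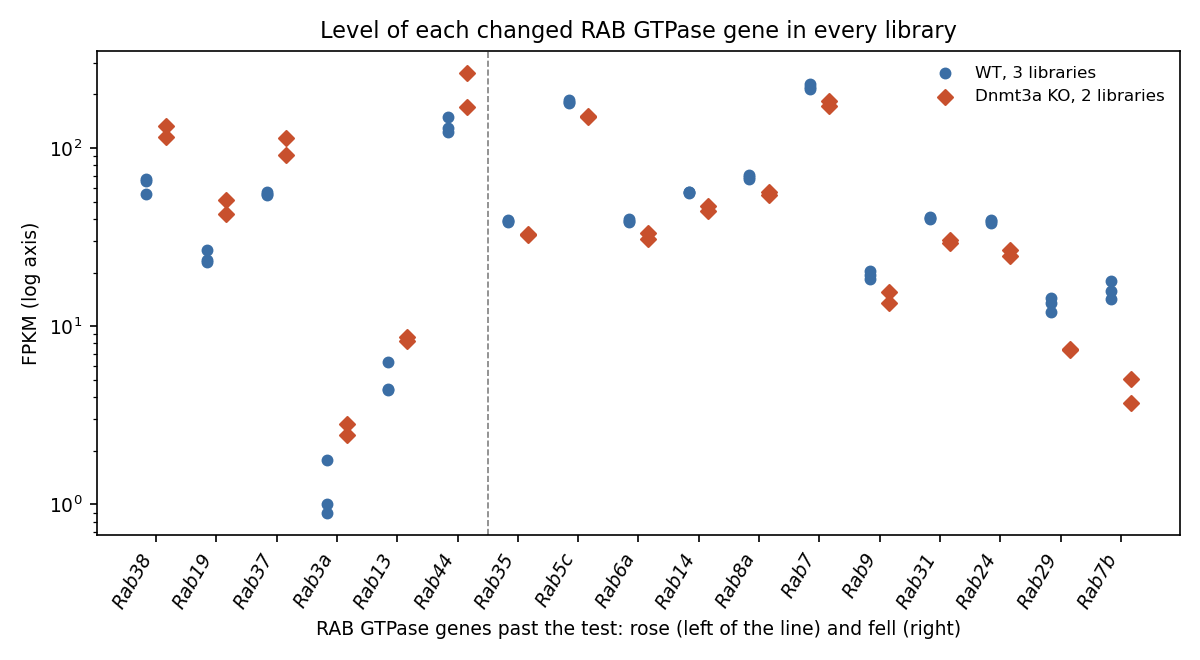
FPKM (log axis) of the 17 RAB GTPase genes past the test, in the 3 WT libraries (circles) and the 2 Dnmt3a KO libraries (diamonds), ordered by log2 change. The groups do not overlap for any of them, which holds for 51.1% of all tested genes. The 17 were picked by a test on the same values, so this adds no separate support. Rab7b shows the widest gap, from 14.3 FPKM in the lowest WT library to 5.07 FPKM in the highest KO library.

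Rab38 encodes a GTPase of melanosomes and other lysosome-related organelles, and it had the largest upward log2 change of the tested family members. The WT cultures gave 66.8, 55.5 and 65.2 FPKM for replicates 1, 2 and 3, against 134 and 116 FPKM for replicates 2 and 3 of the KO. Libraries are listed in this order throughout. Both KO libraries were far above every WT library (log2 change 0.99 ± 0.11 SE, limma adjusted p = 0.00101). Among the 53 GTPase genes it moved from rank 8 by mean level in WT to rank 4 in the KO.

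Rab37, a GTPase found on secretory granules including those of mast cells, held 55.5, 54.7 and 56.3 FPKM in WT and 91.0 and 114 FPKM in the KO. The WT libraries were nearly equal, while the KO libraries differed from each other by more than the whole WT range and both lay above it (log2 change 0.87 ± 0.10 SE, limma adjusted p = 0.00141). The gene overlaps Cd300lf, whose level was 84.5 FPKM in WT and 75.4 FPKM in the KO, so reads of the 2 genes may not have been told apart.

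Rab44 encodes an atypical large RAB with a role in mast cell degranulation. It held 123, 129 and 150 FPKM in WT and 169 and 264 FPKM in the KO. The groups did not overlap, but KO replicate 3 stood well above KO replicate 2 (log2 change 0.66 ± 0.18 SE, limma adjusted p = 0.0404). In the KO it had the highest mean level of all GTPase genes, and in WT the third highest. Its call was lost without KO replicate 3 (log2 change 0.34, limma adjusted p = 0.112), without WT replicate 1, 2 or 3 (0.0956, 0.104 and 0.0529), with low genes left in (0.0687), with no mean-variance trend (0.0612) and with sex as a covariate (0.0991).

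Rab3a, best known from the vesicles of nerve terminals, was low in these cultures. It held 1.01, 0.89 and 1.77 FPKM in WT and 2.46 and 2.84 FPKM in the KO. WT replicate 3 was the highest of its group and still below both KO libraries (log2 change 0.73 ± 0.19 SE, limma adjusted p = 0.0324). The call was lost without WT replicate 1 or 2 (limma adjusted p = 0.0747 and 0.0842), without KO replicate 2 or 3 (0.0771 and 0.152) and with sex as a covariate (0.0861). Its relative Rab3d, the main RAB3 form here and a granule-associated one, held 38.1, 31.4 and 31.0 FPKM in WT and 26.2 and 27.2 FPKM in the KO and did not pass (log2 change -0.31 ± 0.10 SE, limma adjusted p = 0.0747).

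Rab32, the closest relative of Rab38 and likewise a GTPase of lysosome-related organelles, did not pass. It held 52.2, 51.2 and 50.3 FPKM in WT and 42.0 and 48.5 FPKM in the KO (log2 change -0.18, 95% interval -0.37 to 0.02, limma adjusted p = 0.176). Rab29, which acts with the kinase LRRK2 at the Golgi and at lysosomes, was the 1 member of the secretory group that fell. It held 14.4, 13.5 and 12.0 FPKM in WT and 7.44 and 7.32 FPKM in the KO. The KO libraries were nearly equal and well under every WT library (log2 change -0.77 ± 0.10 SE, limma adjusted p = 0.00188). Rab26 and Rab3b stayed under 1 FPKM in every library and were not tested.

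**Figure D2:**
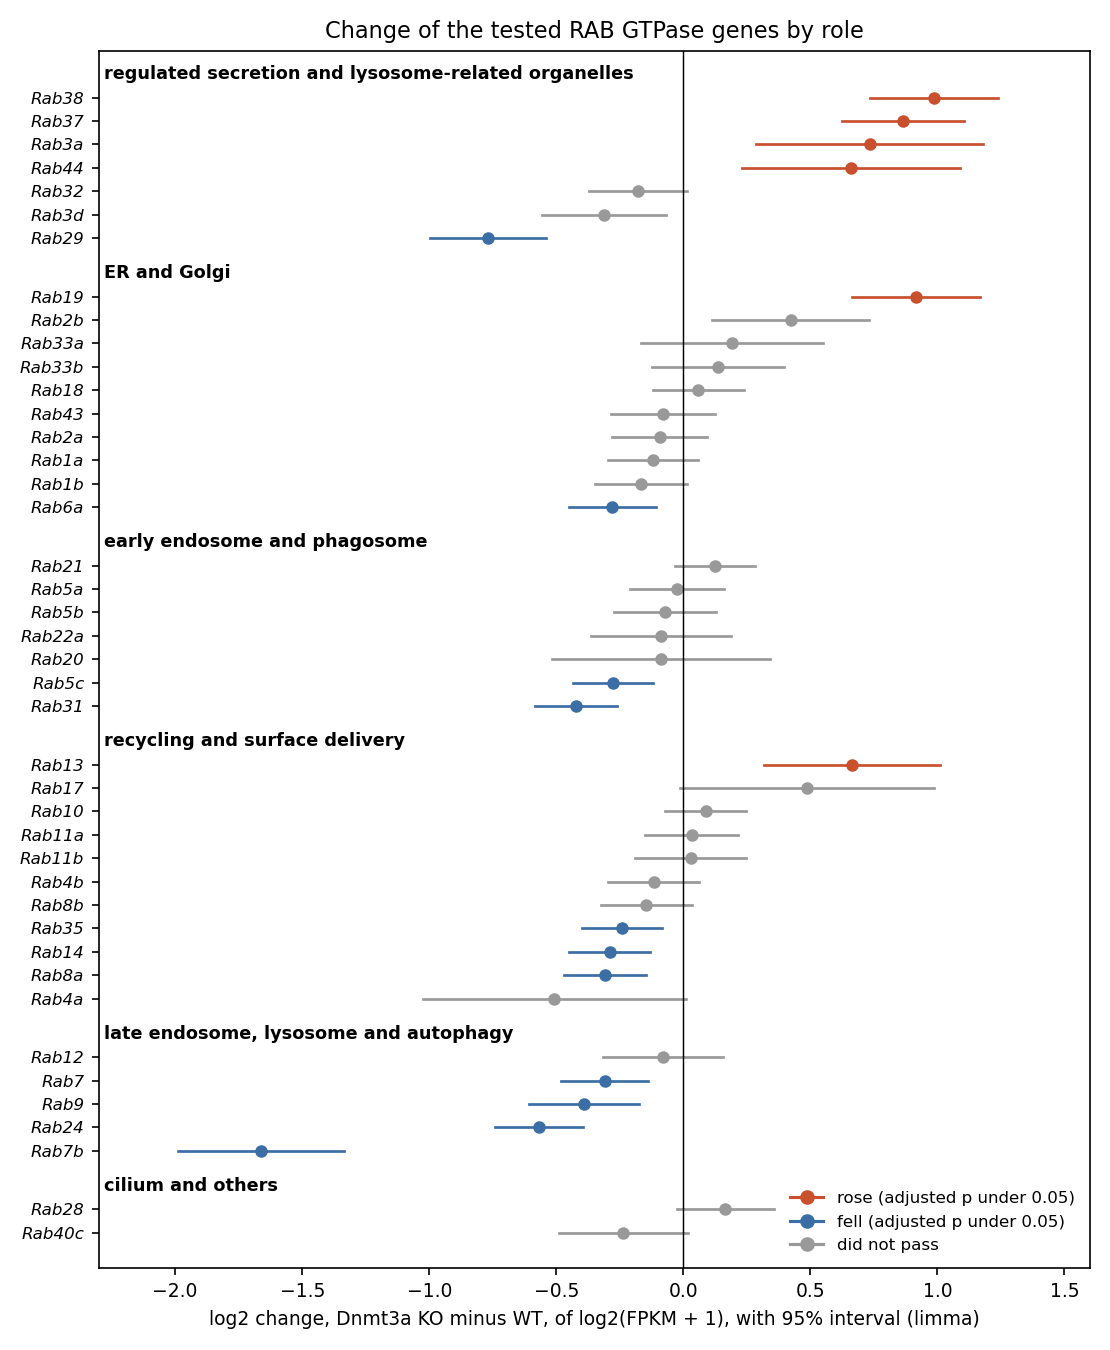
Log2 change (Dnmt3a KO minus WT, on the log2(FPKM + 1) scale) with its 95% interval from limma for the 42 tested RAB GTPase genes, grouped by role. The 4 rises of the secretory group stand apart from its 1 fall (Rab29), and the 4 falls in the late endosomal group range from -0.31 (Rab7) to -1.66 (Rab7b). Rab38, Rab37, Rab19, Rab7b, Rab29 and Rab24 were called under all 14 alternatives. The calls of all other called genes, Rab3a, Rab44, Rab9 and Rab7 among them, were lost under some.

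Of the late endosomal and lysosomal members, Rab7b, Rab24, Rab9 and Rab7 fell and Rab12 did not pass. Rab7b encodes a GTPase of traffic between late endosomes and the Golgi that is found in monocytes and macrophages. It held 14.3, 17.9 and 15.8 FPKM in WT and 5.07 and 3.72 FPKM in the KO. The WT mean was 3.64 times the KO mean, and every KO value lay far below every WT value (log2 change -1.66 ± 0.14 SE, limma adjusted p = 0.000446).

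Rab24, which takes part in autophagy, held 38.2, 38.7 and 39.3 FPKM in WT and 26.9 and 24.7 FPKM in the KO. The spread within each group was small against the gap between them (log2 change -0.57 ± 0.07 SE, limma adjusted p = 0.00201). Rab9, on the X chromosome, returns receptors from late endosomes to the Golgi, and it held 19.5, 20.4 and 18.4 FPKM in WT and 15.6 and 13.5 FPKM in the KO. The groups did not overlap (log2 change -0.39 ± 0.09 SE, limma adjusted p = 0.0227), but the call was lost on leaving out WT replicate 1, WT replicate 2 or KO replicate 3 (0.0607, 0.0851 and 0.0841), under upper-quartile scaling (0.0508) and with sex as a covariate (0.125).

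Rab7, the central GTPase of late endosomes and lysosomes, had the highest WT level of the family. It held 220, 228 and 213 FPKM in WT and 173 and 183 FPKM in the KO. Both KO libraries were lower than all WT libraries (log2 change -0.31 ± 0.07 SE, limma adjusted p = 0.0227). Rab39 stayed under 1 FPKM in every library and was not tested.

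Among early endosomal and phagosomal members, Rab31 and Rab5c fell and the other 5 did not pass. Rab31, a GTPase of transport between the Golgi and endosomes, held 39.8, 40.8 and 40.5 FPKM in WT and 29.2 and 30.5 FPKM in the KO. Both groups were tight and clearly separate (log2 change -0.42 ± 0.07 SE, limma adjusted p = 0.00518), and with sex as a covariate the call was lost (0.0592). Rab5c, the most abundant of the early endosomal RAB5 genes, held 182, 186 and 179 FPKM in WT and 150 and 150.5 FPKM in the KO (log2 change -0.28 ± 0.07 SE, limma adjusted p = 0.0250). The changes of Rab5a (-0.02, 95% interval -0.21 to 0.16) and Rab5b (-0.07, -0.27 to 0.13) did not pass, with overlapping groups. Rab20 and Rab22a overlapped as well. Rab21, which carries integrins, had KO values of 52.0 and 50.1 FPKM above WT values of 46.3 to 47.5 FPKM and did not pass (log2 change 0.12, limma adjusted p = 0.237).

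In the group of recycling and delivery to the cell surface, Rab13 rose, Rab8a, Rab14 and Rab35 fell, and 7 did not pass. Rab13, known from tight junctions and surface delivery, held 4.4, 4.45 and 6.28 FPKM in WT and 8.30 and 8.66 FPKM in the KO. WT replicate 3 was nearest to the KO and still below it (log2 change 0.66 ± 0.15 SE, limma adjusted p = 0.0184). The call was lost without WT replicate 2, KO replicate 2 or KO replicate 3 (0.0574, 0.0577 and 0.0899). Rab8a, an exocytic GTPase, held 67.4, 68.9 and 70.4 FPKM in WT and 54.2 and 56.8 FPKM in the KO (log2 change -0.31 ± 0.07 SE, limma adjusted p = 0.0181). Rab14, of endosome to Golgi traffic, held 56.4, 56.2 and 56.3 FPKM in WT and 47.3 and 44.4 FPKM in the KO (-0.29 ± 0.07 SE, 0.0227). Rab35, of fast recycling, held 38.3, 38.7 and 39.2 FPKM in WT and 32.4 and 32.9 FPKM in the KO (-0.24 ± 0.07 SE, 0.0409). These 3 falls were small, and their groups did not overlap.

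The recycling GTPases Rab11a and Rab11b were level between the groups. Rab11a held 55.3, 59.0 and 60.4 FPKM in WT and 62.3 and 57.0 FPKM in the KO, and the 95% interval of its log2 change ran from -0.15 to 0.22. Rab11b held 20.2, 17.9 and 18.0 FPKM in WT and 20.1 and 18.0 FPKM in the KO, with an interval of -0.19 to 0.25. Rab4a scattered more than its neighbours, with 8.58, 11.6 and 8.67 FPKM in WT and 8.5 and 4.79 FPKM in the KO (log2 change -0.51 ± 0.22 SE, limma adjusted p = 0.151). The epithelial Rab17 and the more abundant Rab10, Rab4b and Rab8b did not pass, and Rab15 and Rab25 stayed under 1 FPKM.

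Of 10 tested GTPases of the endoplasmic reticulum and Golgi, 1 rose, 1 fell and 8 did not pass. That is 20% called, near the 22.1% of all tested genes. Rab19 rose from 23.5, 22.9 and 26.6 FPKM in WT to 51.3 and 42.5 FPKM in the KO. Every KO value exceeded every WT value by a wide margin (log2 change 0.92 ± 0.11 SE, limma adjusted p = 0.00139). Rab6a, a Golgi GTPase, held 38.5, 40.0 and 38.7 FPKM in WT and 30.7 and 33.3 FPKM in the KO (-0.28 ± 0.07 SE, 0.0331). It shares part of its span with Mrpl48, which held 33.6 and 30.9 FPKM and did not pass. The abundant Rab1a, Rab1b and Rab2a, which act between the endoplasmic reticulum and the Golgi, had log2 changes of -0.12, -0.17 and -0.09 that did not pass (limma adjusted p = 0.307, 0.176 and 0.457). Rab2b, a close relative of Rab2a at a far lower level, held 1.96, 2.49 and 2.22 FPKM in WT and 3.62 and 3.02 FPKM in the KO. Its groups did not overlap and it did not pass (log2 change 0.42 ± 0.13 SE, limma adjusted p = 0.0604), although it did under median-of-ratios scaling (0.0497), under upper-quartile scaling (0.0411) and with no mean-variance trend (0.0415). Rab18, which acts at the endoplasmic reticulum and lipid droplets, had a log2 change of 0.06, and the Golgi genes Rab33a and Rab33b had 0.19 and 0.14, none past the test (0.628, 0.415 and 0.429). Rab30, Rab34 and Rab36 stayed under 1 FPKM, and Rab6b reached it in KO replicate 3 alone. In the last group, Rab28 and Rab40c did not pass, and Rab23 and Rab40b stayed under 1 FPKM.

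The small falls of Rab5c, Rab6a, Rab7, Rab8a, Rab14 and Rab35 depended on how the libraries were scaled. Under upper-quartile scaling, which sets the libraries level at a high quantile, none of these 6 passed (limma adjusted p = 0.0589 to 0.147). With it 7 members were higher and 5 lower, against 6 and 12 without it. Among all tested genes 53.8% of calls were then higher, against 41.2% without it. Of the 3 scalings tried, Rab5c, Rab6a, Rab14 and Rab35 were called under none, and Rab7 and Rab8a under 1. With sex as a covariate none of the 6 was called. Without WT replicate 2 none of the 6 passed either (0.0761 to 0.135). Without WT replicate 3 none did (0.0695 to 0.144), without WT replicate 1 only Rab8a did, without KO replicate 2 Rab35 and Rab6a were lost (0.0577 and 0.0686), and without KO replicate 3 Rab35 and Rab14 (0.0602 and 0.0530). Rab38, Rab37, Rab19, Rab7b, Rab29, Rab24 and Rab3il1 were called under each of the 14 alternatives tried, and all 18 called members kept their direction.

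The summed level of all 53 GTPase genes was similar in the groups, at 1933 ± 11.8 FPKM (SD, n = 3) in WT and 1951 ± 66.8 FPKM (SD, n = 2) in the KO. The KO libraries, at 1904 and 1998 FPKM, lay on either side of the WT range of 1923 to 1946 FPKM. The sum of the 25 that did not pass was 913 and 869 FPKM. By mean level the WT order was led by Rab7, Rab5c and Rab44, and the KO order by Rab44, Rab7 and Rab5c. In KO replicate 2 alone Rab7 was above Rab44, so the order of these 2 was within the spread of the KO libraries.

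Levels of close relatives were also compared as shares of their summed FPKM within each library. Rab38 supplied 56.1, 52.0 and 56.5% of the sum of Rab32 and Rab38 in WT and 76.1 and 70.4% in the KO. Both KO shares exceeded every WT share, and the mean rose from 54.9 ± 2.49% (SD, n = 3) to 73.3 ± 4.0% (SD, n = 2). Rab7b supplied 6.09, 7.26 and 6.91% of Rab7 and Rab7b in WT and 2.84 and 2.0% in the KO, again without overlap. Rab3a made up 2.58, 2.75 and 5.40% of the RAB3 sum in WT and 8.58 and 9.44% in the KO, with Rab3d supplying over 90% in every library. Rab5c went from 70.7 ± 0.537% (SD, n = 3) to 67.4 ± 1.80% (SD, n = 2) of the RAB5 sum. The share of Rab11a was 75.7 and 75.8%, with overlapping groups, and that of Rab1b 54.6 and 53.8%, also overlapping. For 10 of the 14 groups of relatives the share of the gene named first did not overlap between WT and KO. Rab26 and Rab40b are among these, and both stayed under 1 FPKM in every library. As a background, the levels of single genes did not overlap for 51.1% of all tested genes. Shares were not computed for other gene families. With 3 against 2 libraries the 2-sided exact permutation test cannot give a p under 0.2, so none of the RAB shares could pass.

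**Figure D3:**
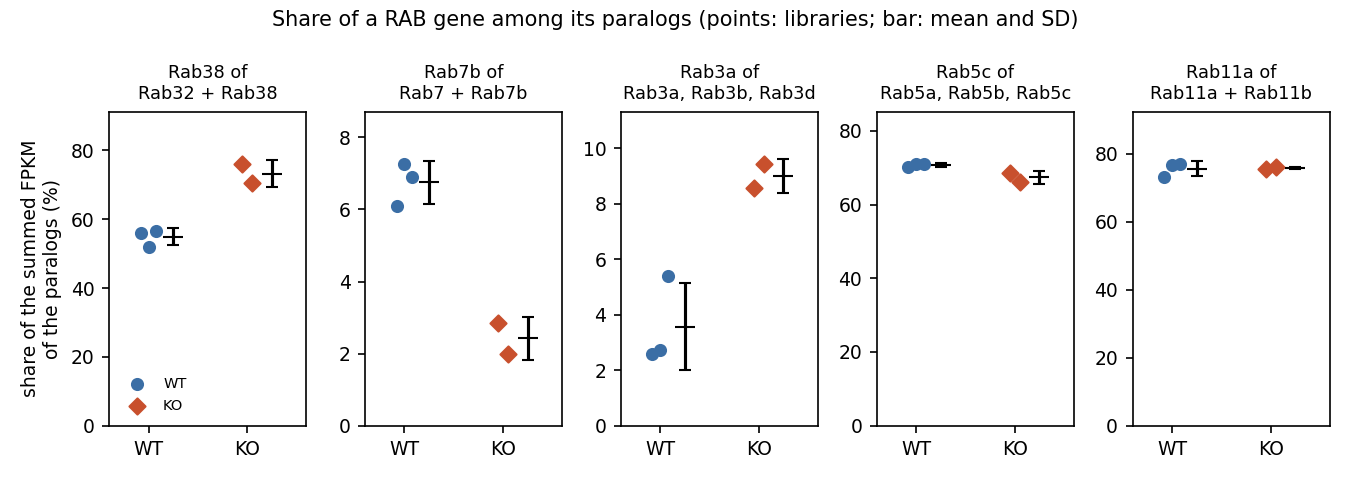
Share (percent) of a RAB gene in the summed FPKM of its close relatives, by library (points), with mean and SD beside them. Rab38 moved from 54.9 to 73.3% and Rab7b from 6.76 to 2.42%, while the share of Rab11a was 75.7% in WT and 75.8% in the KO.

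Dnmt3a methylates cytosines in CpG dinucleotides, so the promoters of the changed genes are shown with their CpG sites, although methylation was not measured here. The promoter table of RefSeq (GRCm38.p6, 250 bases before to 50 after an annotated start, which can lie inside the gene span) had a window for 48 of the 58 members. Rab38, Rab37, Rab44 and Rab7b were the called members without one. The 250 bases before the start are printed for Rab19, the gene with the largest rise among those with a window, and for Rab29, Rab24 and Rab31, the GTPase genes with the largest falls among them. Each reads 5′ to 3′ on the gene's strand, and capitals mark CpG sites.
Rab19, chr6:39381103-39381352, plus strand: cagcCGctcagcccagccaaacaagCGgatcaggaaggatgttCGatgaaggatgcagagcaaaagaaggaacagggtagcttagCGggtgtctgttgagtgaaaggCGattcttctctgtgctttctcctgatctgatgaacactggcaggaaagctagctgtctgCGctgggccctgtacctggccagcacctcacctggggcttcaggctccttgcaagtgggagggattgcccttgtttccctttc
Rab29, chr1:131867027-131867276, plus strand: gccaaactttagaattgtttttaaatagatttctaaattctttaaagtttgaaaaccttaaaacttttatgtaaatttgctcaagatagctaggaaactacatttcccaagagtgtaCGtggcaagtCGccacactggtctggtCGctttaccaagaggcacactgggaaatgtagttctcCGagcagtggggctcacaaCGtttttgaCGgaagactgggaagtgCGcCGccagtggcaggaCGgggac
Rab24, chr13:55321981-55322230, minus strand: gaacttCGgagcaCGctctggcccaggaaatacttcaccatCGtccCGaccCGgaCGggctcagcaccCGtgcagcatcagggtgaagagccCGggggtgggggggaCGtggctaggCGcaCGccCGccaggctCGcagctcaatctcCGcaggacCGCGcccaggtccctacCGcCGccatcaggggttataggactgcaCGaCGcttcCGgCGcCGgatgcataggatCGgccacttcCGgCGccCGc
Rab31, chr17:65772753-65773002, minus strand: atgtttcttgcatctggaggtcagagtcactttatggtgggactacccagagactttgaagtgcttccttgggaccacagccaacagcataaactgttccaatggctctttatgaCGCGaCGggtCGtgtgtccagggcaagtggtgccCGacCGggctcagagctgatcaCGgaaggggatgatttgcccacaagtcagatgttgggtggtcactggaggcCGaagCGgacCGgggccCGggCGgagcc
The 250 bases held 6 CpG sites for Rab19, 9 for Rab29, 27 for Rab24 and 12 for Rab31, so the genes that fell ranged from few to many. Those of Rab19 lie wholly inside its gene span, which begins at 39380709, so they are not the bases upstream of that span. Those of Rab29 overlap its span, which begins at 131867210.

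Over the full 300-base windows, taking the richest window of each gene, the 3 GTPase genes that rose and had a window held 9 to 25 CpG sites (median 22), the 10 that fell 9 to 43 (median 25), and the 22 that did not pass 5 to 43 (median 25.5). The median over all 27025 genes with a window was 8. The median RAB window thus held more CpG sites than the median of all genes, and the called and uncalled members covered overlapping ranges. Motifs were searched on both strands of 63 member windows and all 32851 windows. The E-box CACGTG was in 14.3% of member windows and 7.15% of all, including those of Rab24 and Rab3il1. It contains a CpG site itself, and the comparison was not adjusted for the CpG content of the windows. The Rab3il1 windows that hold it overlap each other, so the same site may be counted more than once. The GATA-type letters AGATAA were in 3.17 and 11.2%, TGATAA, with Rab14 and Rab7 among its 4 members, in 6.35 and 9.05%, and the ETS-type letters GAGGAA in 25.4 and 28.3%. None of these matches is evidence of binding.

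Rab7b (chromosome 1, 131688681 to 131715443) and Rab29 (chromosome 1, 131867210 to 131872887, both in GRCm38.p6) lie 152 kb apart, and both fell. Between them lie Slc41a1, with 1.29 FPKM in WT and 0.730 FPKM in the KO (log2 change -0.40, not past the test), and Slc26a9, under 1 FPKM. On the far side of Rab7b, Ctse went from 136 to 188 FPKM (0.46), and beyond Rab29, Nucks1 had 34.9 and 33.3 FPKM with overlapping groups. These 4 neighbours were chosen after the values of the pair were seen. Another close pair is Rab43 and Rab7 on chromosome 6, 187 kb apart, of which Rab7 fell and Rab43 did not pass (log2 change -0.08).

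Of the 5 members that are not GTPases, Rab3il1 fell and the other 4 did not pass. Rab3il1 encodes an exchange factor for RAB8 that also binds RAB3A. It held 26.3, 36.3 and 31.3 FPKM in WT and 11.2 and 8.09 FPKM in the KO. Its WT libraries varied, yet the lowest was far above the higher KO value (log2 change -1.60 ± 0.17 SE, limma adjusted p = 0.000877). Rab3gap1 and Rab3gap2, the subunits of a complex that turns off RAB3 and activates RAB18, had log2 changes of 0.09 and -0.03. Rab26os, close to the near-silent Rab26, held 4.75 to 7.36 FPKM in WT and 8.21 and 3.62 FPKM in the KO, with overlapping groups. Rab10os overlaps Rab10 by 2947 bases, and no source used here says whether reads were assigned by strand. It held 7.87, 7.22 and 8.77 FPKM in WT and 6.44 and 5.20 FPKM in the KO (log2 change -0.40, limma adjusted p = 0.0584), while Rab10 had a log2 change of 0.09.

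Regulators and effectors of RAB proteins were taken from lists by function. Without the members, 118 genes of the pathway lists were tested, and 7 rose and 17 fell (20.3% called, against 22.1% of all tested genes). None of the 8 genes of prenylation and membrane cycling was called, nor any of the 5 RAB-like GTPases tested (limma). Both lists are too short for these counts to be told apart from the 22.1% of all tested genes. Gdi2, the main carrier of GDP-bound RAB proteins here, held 255, 251 and 252 FPKM in WT and 232 and 219 FPKM in the KO (log2 change -0.16, limma adjusted p = 0.148).

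Of 30 tested GEF genes, 1 rose and 5 fell, Rab3il1 included. Rin2, an exchange factor for RAB5, held 8.09, 9.17 and 8.79 FPKM in WT and 3.14 and 2.40 FPKM in the KO, with a wide gap between groups (log2 change -1.37 ± 0.12 SE, limma adjusted p = 0.000516). Its relative Rin3 was far more abundant, at 61.6 to 68.7 FPKM in WT and 71.9 and 88.6 FPKM in the KO, and did not pass (0.29, 0.0911). Ric1, part of the exchange factor for RAB6, fell by 0.74 on the log2 scale (limma adjusted p = 0.00735, and 0.0560 with sex as a covariate). Sbf2 (-0.68) and Als2cl (-0.64), both low, fell, and Dennd4a, an exchange factor for RAB10, rose (0.51). The call of Sbf2 was lost on leaving out any library but WT replicate 1 (in order, limma adjusted p = 0.0645, 0.0596, 0.0611 and 0.0859) and with sex as a covariate (0.171). Als2cl lost its call on leaving out any library but WT replicate 3 (0.0758, 0.110, 0.167 and 0.102). It was also lost under all 3 other scalings (0.0583 to 0.0653), with low genes left in (0.0572), with a replicate block (0.0681) and with sex as a covariate (0.238). The call of Dennd4a was lost on leaving out any library but KO replicate 2 (0.0537, 0.0889, 0.0611 and 0.101) and with sex as a covariate (0.167). The exchange factors of RAB32 and RAB38, Hps1 and Hps4, did not pass (0.21 and -0.07), nor did those of RAB7, Mon1a, Mon1b and Ccz1 (0.10, -0.08 and -0.09).

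Of 36 tested GAP genes, 2 rose and 5 fell. Tbc1d9 had the largest change, from 2.73, 3.97 and 2.78 FPKM in WT to 1.11 and 0.70 FPKM in the KO (log2 change -1.12 ± 0.18 SE, limma adjusted p = 0.00481). The other 6 changed by less than 0.5 on the log2 scale.

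Of 42 tested effector genes, 4 rose and 8 fell. Mlph, which links RAB27A to myosin Va, held 1.55, 2.49 and 2.31 FPKM in WT and 5.43 and 7.36 FPKM in the KO (log2 change 1.25 ± 0.18 SE, limma adjusted p = 0.00331). Sytl2 held 3.50, 3.04 and 4.10 FPKM in WT and 7.05 and 8.41 FPKM in the KO (0.94 ± 0.13 SE, 0.00314). Sytl3, another synaptotagmin-like RAB27 effector, held 18.2, 17.0 and 20.4 FPKM in WT and 33.3 and 26.2 FPKM in the KO (0.65 ± 0.12 SE, 0.00954, and 0.0570 with sex as a covariate). The RAB27 effectors Sytl1 and Unc13d did not pass (log2 change -0.06 and 0.21, limma adjusted p = 0.826 and 0.238), and Sytl4 and Myrip stayed under 1 FPKM. Rilpl1, a low effector gene of RAB8 and RAB10, had a log2 change of 0.73 and did not pass (0.0545). Its relative Rilpl2 was far more abundant, at 49.6 FPKM in WT and 38.6 FPKM in the KO, and fell (-0.35, limma adjusted p = 0.0258). Rilpl2 was called under 8 of the 14 alternatives. The motor gene Myo5a fell slightly (-0.40), and that call was lost on leaving out any library but WT replicate 1 (in order, limma adjusted p = 0.119, 0.104, 0.132 and 0.0520), under all 3 other scalings (0.0548 to 0.0921), with low genes left in (0.0597), with no mean-variance trend (0.0550) and with sex as a covariate (0.298).

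Rab11fip5, an effector of RAB11 in recycling, showed the largest fall of the effectors, from 13.9, 14.3 and 12.8 FPKM in WT to 4.45 and 4.43 FPKM in the KO. The KO libraries were nearly equal and far below WT (log2 change -1.43 ± 0.09 SE, limma adjusted p = 0.000236), while Rab11a and Rab11b themselves did not pass. Lrrk2, the kinase that acts with RAB29, held 4.31, 5.43 and 4.95 FPKM in WT and 2.39 and 3.37 FPKM in the KO (log2 change -0.61 ± 0.15 SE, limma adjusted p = 0.0247). The call of Lrrk2 was lost on leaving out WT replicate 2, WT replicate 3 or KO replicate 2 (0.0791, 0.0700 and 0.0939) and with sex as a covariate (0.195). The RAB5 effectors Eea1 and Rbsn and the late endosomal tether genes Vps39 and Vps41 did not pass (log2 change -0.15, -0.15, 0.07 and 0.02). Other effectors were called with smaller changes. Appl1 rose (0.35, limma adjusted p = 0.0315). Appl2 (-0.48), Plekhm1 (-0.42), Rab11fip1 (-0.37) and Ehbp1l1 (-0.37) fell (limma adjusted p = 0.0269, 0.0438, 0.0293 and 0.0108). None of these was called under all 14 alternatives.

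**Figure D4:**
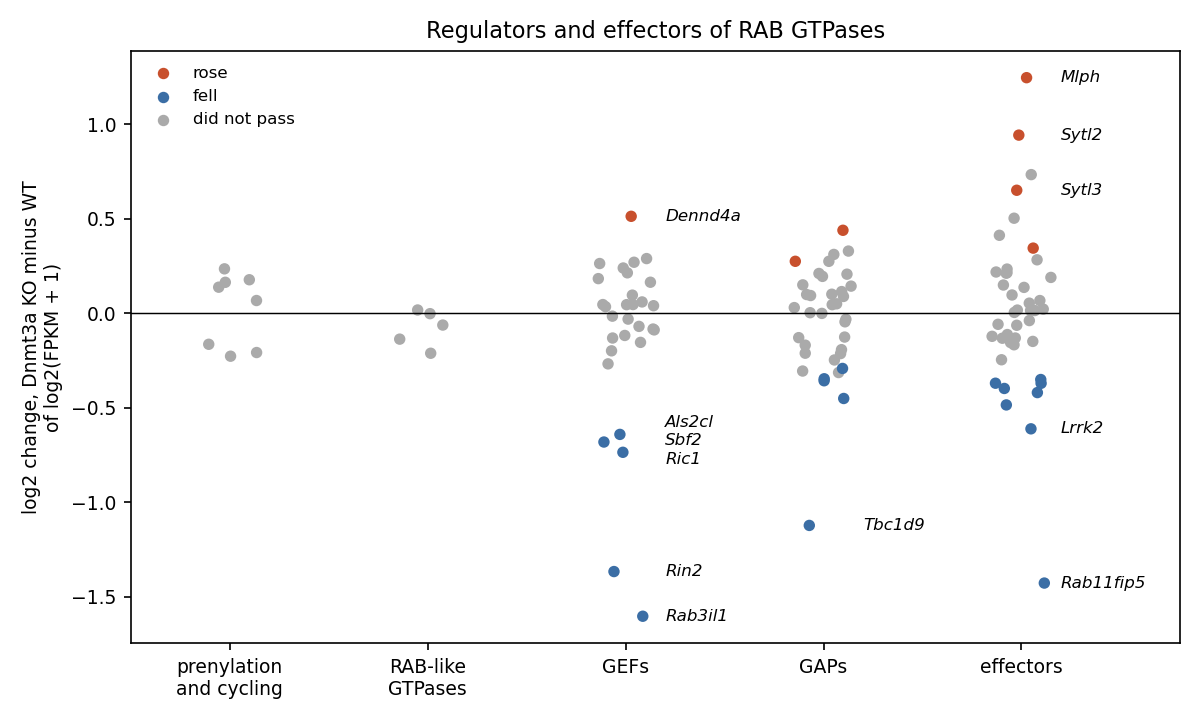
Log2 change (Dnmt3a KO minus WT, on the log2(FPKM + 1) scale) of each tested gene of the 5 pathway lists (points), with names for called genes that changed by at least 0.5. Mlph and Sytl2 lie at the top of the effectors, Rab11fip5 at -1.43 and Rin2 at -1.37 lie near the bottom, and no gene of prenylation and cycling passed.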

How the data were processed

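Bone marrow cultures of both genotypes were measured by mRNA sequencing. The authors deposited 1 table of FPKM per library, per the file headers, and mm10, edgeR, StringTie 1.2.1 and HISAT appear in the submitters' processing notes, with no role or order. How fragments were counted is not stated. Since FPKM carry no read totals and are rounded, depth and counting error per library are unknown. The values summed to 560387 to 604368 per library, and 11038 to 11090 genes reached 1 FPKM.

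Genes with at least 1 FPKM in at least 2 libraries were tested with limma 3.58.1 in R 4.3.3 on log2(FPKM + 1), with genotype as the only term, a mean-variance trend and 3 residual degrees of freedom. Fold changes on this scale understate those of low genes. The threshold was a Benjamini-Hochberg adjusted p of 0.05 over all tested genes. The fit was checked on simulated data. In these, far fewer genes changed than were called here, and the smallest planted change was larger than several called RAB changes. That check thus does not cover the small changes. Nothing says that replicates came from separate animals, apart from the sexes, so p-values reflect only how far these samples spread, and that spread may be technical. Samples were grouped by title. Symbols turned into dates were restored for 23 rows by gene number, and positions are from RefSeq (GRCm38.p6, the build of mm10).

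Every member is accounted for. Values per library are given for members past the threshold, and pathway genes are named with their own test if past it with a log2 change of at least 0.5. Others are named as context. The members, roles, pathway lists and markers were chosen with earlier results of these data known. No proteins were analysed here. Alternatives were 3 scalings, a pseudocount of 0.1, no filter, no trend, robust variances, sex, a replicate block and leaving out each library.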

Additional observations from a re-analysis of the deposited data

How the results depend on the processing

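Leaving out 1 library at a time gave 8 to 16 called members (3 to 5 higher, 5 to 12 lower) against 18 (6 and 12). It gave 9 to 21 of the other pathway genes against 24, 1623 to 2659 of all genes against 2507, and 10 to 12 of 14 paralog shares without overlap against 10. The share count cannot fall when a library is left out, because groups that do not overlap stay apart with fewer values. It is thus no check of the shares. The fewest members were called without WT replicate 2. A lone KO library is there assumed to vary like WT. With sex as a covariate 9 members (5 lower), 5 other pathway genes and 1312 of all genes were called. The number of lower members was 5 under upper-quartile scaling, 6 under quantile normalization and 7 with a replicate block. That block used the numbers in the titles, which KO replicates 2 and 3 share with WT. The deviations of same-numbered libraries correlated at -0.03 and 0.10, and nothing says that the numbers pair the samples. The block gave 13 members and 2058 of all genes. No called member or pathway gene changed direction. Depth is unknown, so no counting limit can be set for the 11 untested genes.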
